A study of Mus musculus with 30 samples.

Results

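The excitation-contraction and calcium handling genes described here are 10 genes chosen by name: Cacna1s, Cacng1, Stac3, Jph2, Ryr1, Atp2a1, Atp2a2, Sln, Casq1 and Casq2. They were found in the count table of 55487 genes by matching its mouse Ensembl identifiers to symbols of GENCODE M21 (assembly GRCm38). All 10 passed the filter on low counts that left 15907 genes for testing, so no member was lost. The cells were wild-type C2C12 myotubes, multinucleated muscle cells made by fusing a mouse myoblast line in culture, and every group spent 4 days in low glucose medium with 2% horse serum before treatment. For 4 further days (8 days in all) the cells stayed in 2% horse serum (2% HS), lost serum (SD), or lost serum and received 100 nM metformin (MET), 500 nM leucine (LEU) or both (MET+LEU). Each group held 6 libraries of ribosomal RNA-depleted total RNA. The labels do not say whether replicates were separate cultures, so the p-values measure only the spread between these libraries. C2C12 is a single line without nerve supply, and each library reads a whole dish.

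Excitation-contraction coupling turns an action potential on the muscle membrane into contraction. In the transverse tubule the voltage sensor, a calcium channel with several subunits, changes shape and opens the ryanodine receptor, the channel through which calcium leaves the sarcoplasmic reticulum. Junctophilins hold the membranes of tubule and reticulum together, pumps of the SERCA family return calcium to the reticulum, and calsequestrins bind it there. Differentiating C2C12 cells build this system as they fuse, and several parts come in isoforms linked to fast, slow or cardiac muscle.

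Libraries held between 12784960 and 19604103 counts, and a count of 0 would allow up to 3 counts of a library's total. The myotube label was checked on 10 markers (Myog, Mymk, Mymx, Ckm, Acta1, Myh3, Myh8, Ttn, Des and Mb), which all passed the filter and summed to 29216 to 42412 CPM (counts scaled to a common library size) in a library. All 9 markers of unfused and cycling cells were also detected, at a summed 627 to 954 CPM. Of 9 markers of other cell types, 8 failed the filter and never passed 11 counts in a library (Myl7 and Rbfox3 were at 0), and the ninth, the cardiac myosin Myh6, lay at 15.4 CPM in SD and 26.7 CPM in MET+LEU. MET+LEU replicate 6 stood apart: nuclear and mitochondrial ribosomal RNA took 5.85% and 7.64% of its counts, against at most 1.96% and 0.760% in the other 29 libraries.

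The members spanned a wide range of transcript levels. Compared per kilobase of exon, Atp2a1, the fast-muscle SERCA1 pump, had the highest level in every group, with a mean of 414 CPM per kb in 2% HS and 251 CPM per kb in SD. Atp2a2, the SERCA2 pump of slow muscle and heart, followed at 174 CPM per kb in 2% HS, and Cacng1, the gamma subunit of the voltage sensor, at 147 CPM per kb. Ryr1, the release channel, was at 37.8 CPM per kb in 2% HS. Stac3, an adaptor protein that the voltage sensor needs to work, and Sln (sarcolipin), a small membrane peptide that inhibits SERCA, were the lowest of the 10 genes in 2% HS, at 17.8 and 16.3 CPM per kb. All levels below are CPM scaled by TMM and compare 1 gene between groups.

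**Figure D1:**
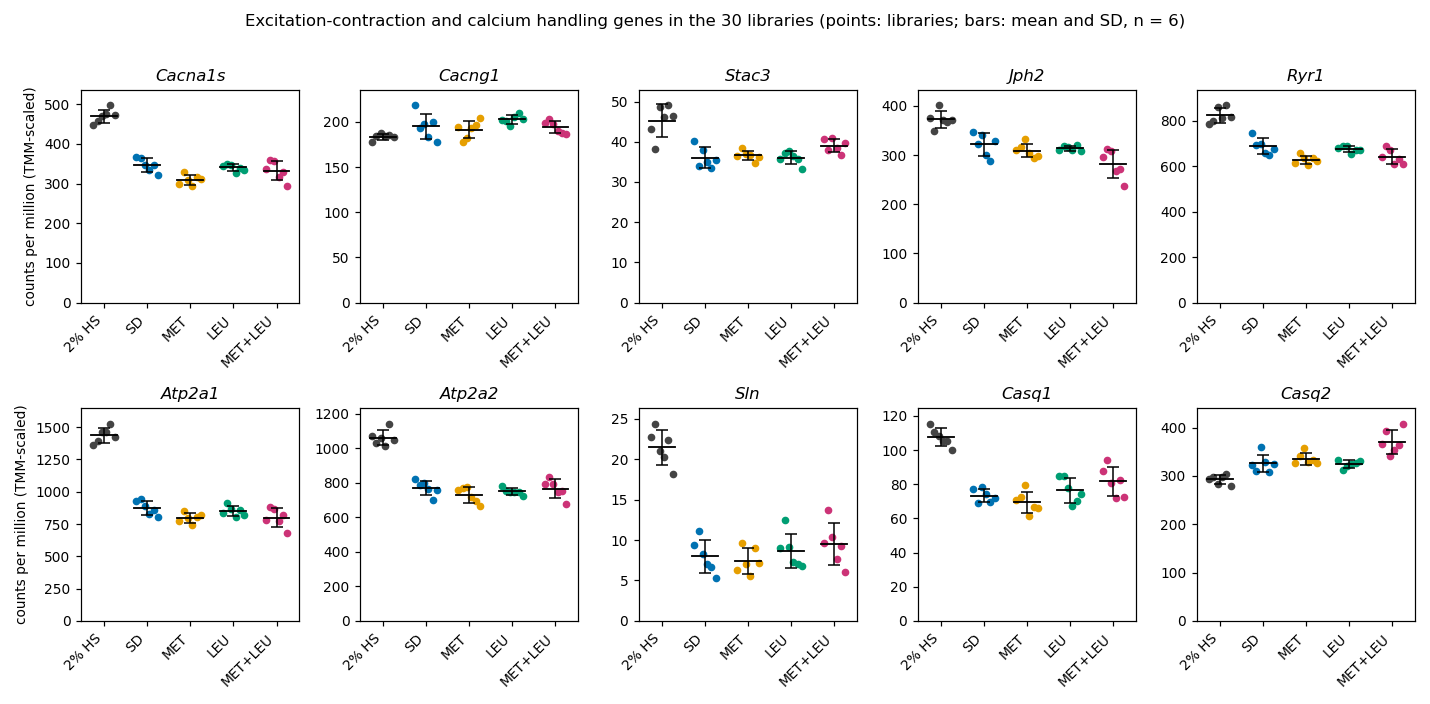
TMM-scaled CPM of each gene (y axis, from 0) in the 30 libraries by group, with the mean and SD of 6 libraries as bars. Of the 10 genes, 7 had every SD library below every 2% HS library, Casq2 had every SD library above, and Cacng1 and Stac3 overlapped.

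Serum deprivation was compared with 2% HS to ask what atrophy medium did to these transcripts. In SD vs. 2% HS, 8 of the 10 genes fell and 1 rose (edgeR quasi-likelihood test, adjusted p under 0.05 over all genes tested), while 27.8% of all genes tested passed, 13.9% in each direction. The libraries of the groups did not overlap for 7 of the genes that fell and for the 1 that rose; over all genes such separation occurred for 7.42% downward and 6.17% upward. The median log2 fold change of the 10 genes was -0.38, against 0.0028 over all genes tested. The summed level of the 10 myotube markers also differed without overlap, at 32784 to 35078 CPM in SD and 39529 to 42412 CPM in 2% HS. Most of that sum was Ttn (mean 24592 CPM in SD and 30972 CPM in 2% HS), and 6 of the 10 markers did not pass. The markers of unfused and cycling cells summed to 760 to 842 CPM in SD and 874 to 954 CPM in 2% HS. The part of both marker sets in the changes of the 10 genes was not tested. In bulk RNA a smaller share of myotubes and less RNA per myotube cannot be told apart.

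Among the parts of the voltage sensor, the pore subunit fell and the gamma subunit did not. Cacna1s (ENSMUSG00000026407, chr1:136052750-136119822, plus strand), the pore-forming and voltage-sensing subunit, ranged from 449 to 497 CPM in 2% HS with a median of 472, and from 321 to 367 CPM in SD with a median of 348. All 6 SD libraries lay below all 6 of 2% HS, and Cacna1s fell with a log2 fold change of -0.44 (95% interval -0.52 to -0.36, adjusted p = 6.73e-13, edgeR). Cacng1 (ENSMUSG00000020722, chr11:107703218-107716522, minus strand) ranged from 178 to 187 CPM in 2% HS (median 184) and from 178 to 218 CPM in SD (median 196). The ranges overlapped, and the log2 fold change of 0.09 (0.01 to 0.16) did not pass the test (adjusted p = 0.0736, edgeR), although it did when SD replicate 4 or SD replicate 6 was left out (log2 fold changes of 0.10 and 0.11). Stac3 (ENSMUSG00000040287, chr10:127501686-127508823, plus strand) ranged from 38.1 to 49.0 CPM in 2% HS (median 46.2) and from 33.4 to 40.1 CPM in SD (median 35.2). The lowest 2% HS library lay below the highest SD library, the only overlap, and Stac3 fell with a log2 fold change of -0.33 (-0.43 to -0.22, adjusted p = 2.00e-06, edgeR).

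The junction and the release channel showed the smallest decreases among the genes that fell. Jph2 (ENSMUSG00000017817, chr2:163336242-163397993, minus strand), a junctophilin best known from the heart, ranged from 348 to 401 CPM in 2% HS (median 371) and from 288 to 347 CPM in SD (median 326). The groups nearly touched but did not overlap, and the log2 fold change was -0.21 (-0.31 to -0.12, adjusted p = 6.12e-04, edgeR). Ryr1 (ENSMUSG00000030592, chr7:29003344-29125179, minus strand) ranged from 789 to 868 CPM in 2% HS (median 815) and from 652 to 749 CPM in SD (median 687). The groups were separate, with a log2 fold change of -0.26 (-0.33 to -0.19, adjusted p = 7.65e-08, edgeR).

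Both pumps and their inhibitor fell, and sarcolipin fell most of the 10 genes. Atp2a1 (ENSMUSG00000030730, chr7:126445858-126463108, minus strand) ranged from 1361 to 1526 CPM in 2% HS (median 1441) and from 801 to 941 CPM in SD (median 875). Its groups lay far apart, with a log2 fold change of -0.72 (-0.81 to -0.63, adjusted p = 2.22e-17, edgeR). Atp2a2 (ENSMUSG00000029467, chr5:122453513-122502225, minus strand) ranged from 1013 to 1141 CPM in 2% HS (median 1054) and from 700 to 819 CPM in SD (median 774). The groups were again separate, with a log2 fold change of -0.46 (-0.54 to -0.38, adjusted p = 9.74e-13, edgeR). Sln (ENSMUSG00000042045, chr9:53850164-53854560, plus strand) ranged from 18.1 to 24.4 CPM in 2% HS (median 21.7) and from 5.35 to 11.2 CPM in SD (median 7.61). Every SD library was below every 2% HS library, and the log2 fold change of -1.42 (-1.77 to -1.07, adjusted p = 1.37e-07, edgeR) had the widest interval of the 10 genes. Sln was also the gene with the lowest CPM, and the source of its wide interval was not tested.

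The calsequestrins moved in opposite directions. Casq1 (ENSMUSG00000007122, chr1:172209894-172219868, minus strand), the isoform of fast skeletal muscle, ranged from 100 to 115 CPM in 2% HS (median 107) and from 69.2 to 78.2 CPM in SD (median 73.1). It fell with no overlap, by 0.55 on the log2 scale (log2 fold change -0.55, interval -0.67 to -0.43, adjusted p = 3.52e-09, edgeR). Casq2 (ENSMUSG00000027861, chr3:102086415-102146514, plus strand), the isoform of heart and slow muscle, ranged from 279 to 305 CPM in 2% HS (median 296) and from 309 to 359 CPM in SD (median 324). All SD libraries were above all 2% HS libraries, and Casq2 rose with a log2 fold change of 0.15 (0.08 to 0.23, adjusted p = 0.00124, edgeR). Casq2 overlaps the gene 4632404M16Rik on its own strand (147 counts a library on average) and Atp2a1 overlaps Rabep2 on the other strand (296 counts), and how reads there were assigned is not given in the sources used here.

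**Figure D2:**
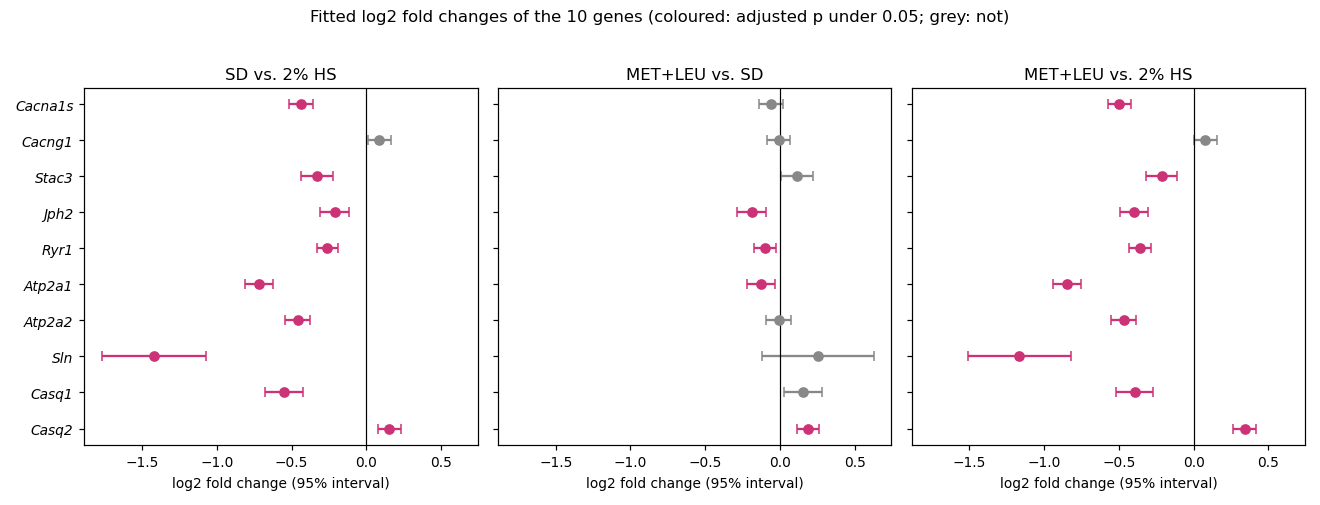
Log2 fold changes (x axis) of the 10 genes with 95% intervals for SD against 2% HS, MET+LEU vs. SD and MET+LEU vs. 2% HS, coloured where the adjusted p was under 0.05. SD vs. 2% HS ran from -1.42 (Sln) to 0.15 (Casq2), and MET+LEU vs. SD from -0.19 (Jph2) to 0.25 (Sln, whose interval included 0).

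The promoters of 6 members (Cacna1s, Casq1, Jph2, Casq2, Ryr1 and Atp2a1) were listed in RefSeq on GRCm38.p6. The 250 bases before the RefSeq start were searched on both strands for CAGCTG, a palindromic E-box of the kind that myogenic factors bind, for the looser E-box CANNTG that contains it, for TATAAA, and for the MEF2 site and the CArG box. CAGCTG was present in 4 of the 6 (Cacna1s, Casq1, Jph2 and Atp2a1), against 12.8% of the 27025 promoters of that length in the table. The MEF2 site was present in 1 of the 6, Casq2, against 3.01% of all promoters, and there began 69 bases before the start. The CArG box and TATAAA were in none of the 6 (378 and 3504 of the 27025 promoters), and CANNTG was in 5 (17848 of the 27025). Casq1, Cacna1s and Atp2a1, which fell in SD, are shown with Casq2, which rose, 5′ to 3′ on the strand of the gene and without bases that GENCODE places inside a transcript. Capitals mark CAGCTG in the first 3 and the MEF2 site in Casq2. These are matches of letters, and binding was not measured.
Cacna1s promoter (chr1:136052561-136052749, plus strand): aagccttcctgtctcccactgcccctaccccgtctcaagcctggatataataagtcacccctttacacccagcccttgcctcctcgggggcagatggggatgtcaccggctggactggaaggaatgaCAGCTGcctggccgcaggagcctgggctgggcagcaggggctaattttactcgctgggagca
Atp2a1 promoter (chr7:126463109-126463323, minus strand): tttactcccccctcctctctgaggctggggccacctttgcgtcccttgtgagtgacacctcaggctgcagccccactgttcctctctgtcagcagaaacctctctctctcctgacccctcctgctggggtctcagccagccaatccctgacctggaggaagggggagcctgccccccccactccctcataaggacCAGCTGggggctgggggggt
Casq1 promoter (chr1:172219896-172220145, minus strand): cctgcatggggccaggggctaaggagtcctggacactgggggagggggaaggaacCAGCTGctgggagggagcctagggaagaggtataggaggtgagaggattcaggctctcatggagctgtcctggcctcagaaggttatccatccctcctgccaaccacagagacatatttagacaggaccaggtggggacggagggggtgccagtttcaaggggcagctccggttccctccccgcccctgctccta
Casq2 promoter (chr3:102086165-102086414, plus strand): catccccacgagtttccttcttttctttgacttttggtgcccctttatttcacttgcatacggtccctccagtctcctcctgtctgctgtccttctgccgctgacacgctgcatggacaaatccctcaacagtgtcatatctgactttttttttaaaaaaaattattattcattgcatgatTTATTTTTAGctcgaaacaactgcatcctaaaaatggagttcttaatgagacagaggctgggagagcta
The 250 bases before the start of Ryr1, which also fell in SD, held neither E-box pattern.

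Ratios of counts within a library do not depend on how libraries are scaled, and 4 pairs were compared in 3 comparisons each (12 exact two-sided permutation tests of 6 against 6 libraries, Benjamini-Hochberg adjusted). In SD vs. 2% HS all 4 ratios fell without overlap between libraries, each at the smallest p that the design allows (0.00216, adjusted exact permutation p = 0.00371). The ratios use the same counts as the gene tests above, so they are not separate evidence. For Casq1 to Casq2 this outcome was fixed, because Casq1 lay lower and Casq2 higher in SD, each without overlap. Sln relative to Atp2a1 fell by 0.74 on the log2 scale, from a mean of -6.07 ± 0.171 (± standard deviation, n = 6 libraries) to -6.81 ± 0.290. Casq1 relative to Casq2 fell by 0.70, from -1.44 ± 0.0695 to -2.15 ± 0.0453, which is a change from a geometric mean of 0.367 to 0.225 Casq1 counts per Casq2 count. Atp2a1 relative to Atp2a2 fell by 0.26, from 0.44 ± 0.0584 to 0.18 ± 0.0849, and Cacna1s relative to Ryr1 fell by 0.18, from -0.81 ± 0.0347 to -0.99 ± 0.0650. Relative to its partner, the fast-muscle isoform was lower in SD in both isoform pairs, and the pore subunit of the voltage sensor was lower relative to the release channel.

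**Figure D3:**
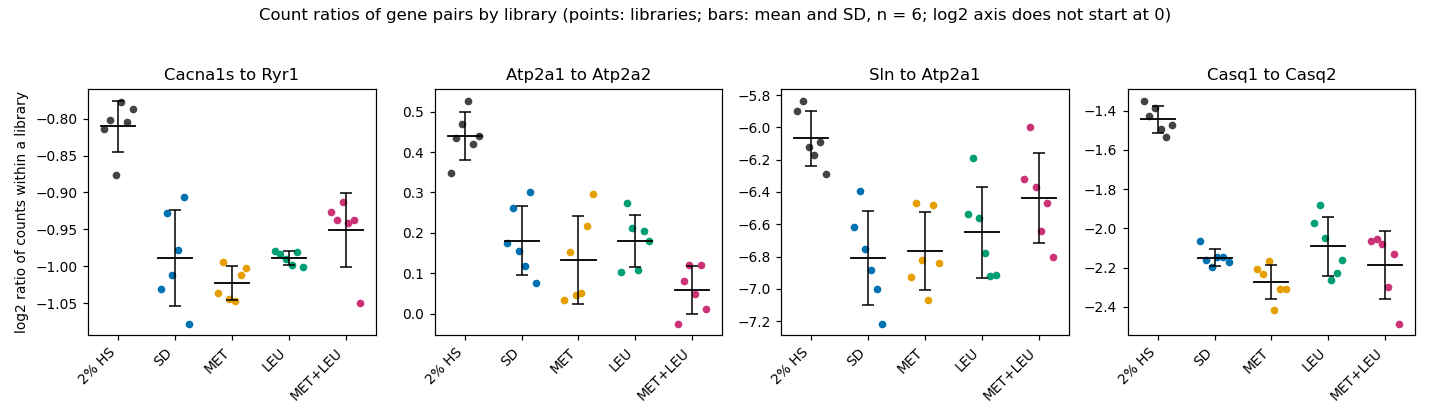
Log2 ratio of counts within a library (y axis, not starting at 0) for 4 gene pairs by group, with the mean and SD of 6 libraries. All 6 libraries of 2% HS lay above all 6 of SD in each pair, and MET+LEU replicate 6 lay lowest of its group for Cacna1s to Ryr1 and for Casq1 to Casq2.

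Each compound alone was compared with SD to ask whether it moved these genes. In MET vs. SD, 0 of the 10 genes passed the edgeR test (0.157% of all genes did), 3 had an unadjusted p under 0.05, and DESeq2 and limma-voom each called 2 lower, Cacna1s and Ryr1. Cacna1s ranged from 293 to 330 CPM in MET (median 310), overlapping SD, with a log2 fold change of -0.17 (-0.24 to -0.09, adjusted p = 0.0556, edgeR). Ryr1 ranged from 606 to 658 CPM in MET (median 629), also overlapping SD, with a log2 fold change of -0.13 (-0.20 to -0.06, adjusted p = 0.107, edgeR). For the third, Atp2a1, the log2 fold change was -0.13 (-0.22 to -0.04, adjusted p = 0.271, edgeR). Whether Cacna1s and Ryr1 passed in edgeR depended on the libraries used, since both did without MET+LEU replicate 6, a library of neither group that enters the shared estimate of spread. The summed myotube markers, mostly Ttn, were also lower in MET (29216 to 32779 CPM) than in SD (32784 to 35078 CPM), although 0 of the 10 passed. The ranges nearly touched but did not overlap. The part of these markers was not tested.

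In LEU vs. SD, 0 of the 10 genes passed with edgeR, DESeq2 or limma-voom, and 0 had an unadjusted p under 0.05; 0.553% of all genes passed. The ranges of LEU and SD overlapped for all 10 genes. Log2 fold changes lay between -0.04 (Atp2a1) and 0.10 (Sln), and apart from Sln (interval -0.27 to 0.48) no interval reached below -0.13 or above 0.18. Changes of the size seen between SD and 2% HS for Atp2a1, Atp2a2, Casq1 and Cacna1s were therefore outside the intervals for LEU. The summed myotube markers, mostly Ttn, were higher in LEU (35980 to 37602 CPM) than in SD with no overlap, although 0 of the 10 passed.

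The combination was compared with SD to ask whether it moved the genes back. In MET+LEU vs. SD, 4 of the 10 genes passed, 1 higher and 3 lower, while 18.4% of all genes tested passed (10.6% higher, 7.8% lower). No gene of the 10 had separate libraries, which 3.41% of all genes had upward and 1.93% downward. The median log2 fold change was -0.0089, against -0.0050 over all genes tested. By this test no gene that fell in SD rose in MET+LEU, whereas Casq2, which had risen, rose further. The myotube markers summed to 31540 to 39268 CPM in MET+LEU, which overlapped SD, and those of unfused and cycling cells to 627 to 723 CPM, below every SD library.

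Casq2 ranged from 342 to 408 CPM in MET+LEU (median 364), against 309 to 359 CPM in SD. The ranges overlapped only between the lowest MET+LEU and the highest SD libraries, and the log2 fold change was 0.19 (0.11 to 0.26, adjusted p = 3.25e-04, edgeR). Of the 4 genes that passed, only Casq2 kept its call in all 39 alternative fits (log2 fold changes of 0.15 to 0.21, adjusted p at most 0.0151).

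Jph2 ranged from 237 to 312 CPM in MET+LEU (median 284), and MET+LEU replicate 6 was the lowest of all 30 libraries. All MET+LEU libraries lay below the SD median of 326, and the log2 fold change was -0.19 (-0.28 to -0.09, adjusted p = 0.00458, edgeR). Atp2a1 ranged from 683 to 884 CPM in MET+LEU (median 799), with a log2 fold change of -0.13 (-0.22 to -0.04, adjusted p = 0.0412, edgeR). Ryr1 ranged from 610 to 690 CPM in MET+LEU (median 637), with a log2 fold change of -0.10 (-0.17 to -0.03, adjusted p = 0.0415, edgeR).

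A GC offset removed the calls of these 3 decreases. Jph2, Ryr1 and Cacng1 had the highest GC content of the 10 genes (61.8%, 58.0% and 55.9% of the longest transcript), followed by Atp2a1 (55.3%), while Sln and Casq2 had the lowest (47.0% and 47.2%). In MET+LEU vs. SD the log2 fold changes were highest for Sln (0.25) and Casq2 (0.19). With the offset Sln was at 0.24 and Casq2 at 0.17, and Sln did not pass with or without it. Cacng1 and Atp2a2 (48.2% GC) were both at -0.01, and Cacng1 moved to 0.066 with the offset. The relation of fold change to GC content was not tested. With a GC offset for each library the split of calls in MET+LEU vs. SD changed from 1 higher and 3 lower to 3 higher and 0 lower. Jph2 then stood at a log2 fold change of -0.05 (adjusted p = 0.299), Atp2a1 of -0.06 (adjusted p = 0.302) and Ryr1 of -0.00030 (adjusted p = 0.998, all edgeR). Casq1 and Stac3 passed as higher with the offset, with log2 fold changes of 0.18 (adjusted p = 0.0426) and 0.18 (adjusted p = 0.00814, edgeR). Without MET+LEU replicate 6, 2 of the 10 genes passed, Casq2 (0.15, adjusted p = 0.00147) and Jph2 (-0.15, adjusted p = 0.00820, edgeR); Atp2a1 (-0.09, adjusted p = 0.110) and Ryr1 (-0.09, adjusted p = 0.0665) did not. Without SD replicate 1 the number was also 2.

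**Figure D4:**
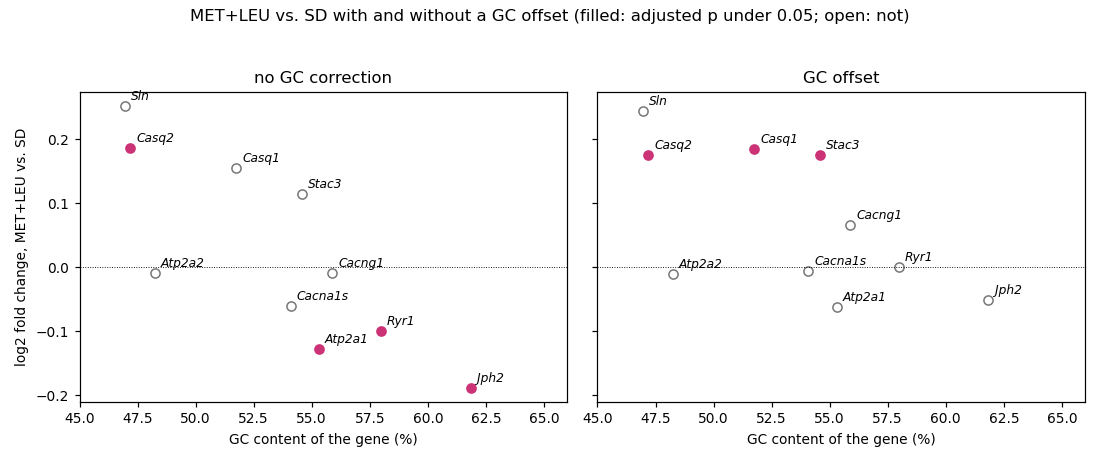
Log2 fold change in MET+LEU vs. SD (y axis) of the 10 genes against the GC content of each gene in percent (x axis), without and with a GC offset, filled where the adjusted p was under 0.05. Jph2 moved from -0.19 to -0.05 and Ryr1 from -0.10 to -0.00030 with the offset, while Casq2 stayed at 0.19 and 0.17.

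The other members did not pass in MET+LEU vs. SD. Casq1 ranged from 71.9 to 94.5 CPM in MET+LEU (median 81.8), with a log2 fold change of 0.16 (0.03 to 0.28, adjusted p = 0.0767, edgeR), and Stac3 from 36.6 to 41.0 CPM (median 39.0), with 0.11 (0.01 to 0.22, adjusted p = 0.130, edgeR). Sln ranged from 6.08 to 13.8 CPM in MET+LEU (median 9.46), and its interval of -0.12 to 0.63 was too wide to place it. Cacna1s (-0.06, interval -0.14 to 0.02), Atp2a2 (-0.01, -0.09 to 0.07) and Cacng1 (-0.01, -0.08 to 0.07) had intervals well short of the distance between SD and 2% HS for Cacna1s and Atp2a2. Among the ratios, only Atp2a1 to Atp2a2 passed, with a further decrease of 0.12 on the log2 scale (adjusted exact permutation p = 0.0317). It missed the threshold without MET+LEU replicate 1, 4 or 6. Atp2a1 and Atp2a2 differ in GC content (55.3% and 48.2%), and the part of GC content in this ratio was not tested. Sln to Atp2a1 was 0.37 higher on the log2 scale (adjusted exact permutation p = 0.0597), Cacna1s to Ryr1 0.04 higher (adjusted p = 0.309, exact permutation test) and Casq1 to Casq2 0.04 lower in mean (-2.19 ± 0.173 against -2.15 ± 0.0453, adjusted p = 0.673, exact permutation test).

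Against 2% HS, the MET+LEU cells kept the profile of serum deprivation in these genes. In MET+LEU vs. 2% HS, 9 of the 10 genes passed, 8 lower and 1 higher, while 42.3% of all genes tested passed (20.3% lower, 22.1% higher). The groups did not overlap for 7 genes that were lower and for Casq2, against 9.51% and 11.5% of all genes. The log2 fold changes were -1.17 for Sln (-1.51 to -0.82), -0.85 for Atp2a1 (-0.94 to -0.75), -0.50 for Cacna1s (-0.58 to -0.42) and -0.47 for Atp2a2 (-0.55 to -0.38). Jph2 and Casq1 were both at -0.40 (intervals -0.50 to -0.30 and -0.52 to -0.27), Ryr1 was at -0.36 (-0.43 to -0.29) and Stac3 at -0.21 (-0.32 to -0.11). Casq2 was higher by 0.34 (0.27 to 0.42), and Cacng1 did not pass (0.08, 0.0036 to 0.15, adjusted p = 0.0851, edgeR), although it did with the GC offset (0.14) and with limma-voom (0.08). These calls share the MET+LEU libraries with the comparison above and the 2% HS libraries with SD vs. 2% HS, so they are not separate evidence. In the ratios, Atp2a1 to Atp2a2 was 0.38 below 2% HS on the log2 scale, Casq1 to Casq2 0.74 below and Cacna1s to Ryr1 0.14 below (each adjusted exact permutation p = 0.00371), and Sln to Atp2a1 0.37 below (adjusted exact permutation p = 0.0317).

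The combination was also set against each compound alone. In MET+LEU vs. MET, 2 of the 10 genes were higher, both calsequestrins, with 8.69% of all genes passing (5.54% higher). The log2 fold change of Casq1 was 0.24 (0.11 to 0.36, adjusted p = 0.0144) and that of Casq2 0.14 (0.07 to 0.22, adjusted p = 0.0110, edgeR); neither passed in a model of the compared groups only, and Casq2 did not pass without MET+LEU replicate 6. In MET+LEU vs. LEU, Casq2 was higher with no overlap of libraries (0.19, 0.12 to 0.27, adjusted p = 0.00161, edgeR), while 2.73% of all genes were separate upward and 6.28% passed (4.61% higher, 1.67% lower). Jph2 was lower (-0.15, -0.25 to -0.06, adjusted p = 0.0463, edgeR), a call that 14 of 39 alternative fits lost, among them the GC offset (-0.03, adjusted p = 0.637). For the interaction of MET and LEU, 0 of the 10 genes passed with edgeR, DESeq2 or limma-voom (0.0503% of all genes passed with edgeR), and 2 had an unadjusted p under 0.05, Casq2 (0.15, 0.04 to 0.26, adjusted p = 0.349) and Cacna1s (0.13, 0.02 to 0.24, adjusted p = 0.454, edgeR). Whether the effect of both compounds differed from the sum of each was therefore not detectable for these genes.

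The order of the groups was the same for most of the genes at its upper end. The 2% HS group was highest in mean and separate from the next group for Ryr1, Atp2a1, Atp2a2, Casq1, Cacna1s, Sln and Jph2. The next group was SD for Ryr1, Atp2a1, Atp2a2, Cacna1s and Jph2, and MET+LEU for Casq1 and Sln. For Casq2 the 2% HS group was lowest and separate from LEU, the next group up. Among the 4 serum-free groups, each overlapped its neighbour in this order for all 10 genes.

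Other genes of calcium handling were described from 9 lists that held 82 genes, 72 of which were tested. In SD vs. 2% HS, 27 of these 72 were lower and 19 higher (13.9% of all genes tested passed in each direction, 27.8% in all), with a median log2 fold change of -0.05 against 0.0028 over all genes. Between MET+LEU and SD, 12 were higher and 6 lower (10.6% and 7.8% of all genes tested, 18.4% in all), a split that became 13 and 2 with the GC offset and 9 and 1 in a model of the compared groups only. In LEU vs. SD 1 was lower, Fkbp1a (log2 fold change -0.15).

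Of 13 tested genes of the tubule and triad, 9 were lower in SD vs. 2% HS (median -0.25), where 13.9% of all genes were lower. Clcn1, the muscle chloride channel, fell by a log2 fold change of -0.97 (adjusted p = 3.39e-07), Kcnj11, a potassium channel subunit that senses ATP, of -0.86 (adjusted p = 4.16e-04) and Scn4a, the muscle sodium channel, of -0.69 (adjusted p = 3.14e-15, edgeR). Clcn1 and Kcnj11 were rare, at means of 3.32 and 2.64 CPM in SD. With MET+LEU, 3 were lower and 1 higher than in SD, where 7.8% of all genes were lower and 10.6% higher: Speg (-0.19), Dysf (-0.16) and Scn4a (-0.15) were lower, and each lost its call with the GC offset (adjusted p = 0.443, 0.0574 and 0.195, edgeR).

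The partners of the release channel divided. Of 11 tested, 4 were lower and 1 higher in SD vs. 2% HS (median -0.04), where 13.9% of all genes passed in each direction. Ryr3, the ryanodine receptor of immature muscle, fell by a log2 fold change of -0.70 (adjusted p = 2.35e-19, edgeR). Trdn (triadin), which anchors calsequestrin at the release channel, had -0.48 (adjusted p = 1.07e-06, edgeR). Tmem38b, a potassium channel of the reticulum, had -0.31 (adjusted p = 2.58e-08, edgeR). Trdn fell in SD and was higher again in MET+LEU. It was 83.6 ± 4.87 CPM in 2% HS, 59.9 ± 3.33 in SD and 80.8 ± 12.3 in MET+LEU (mean ± standard deviation, n = 6), with separate MET+LEU and SD libraries and a log2 fold change of 0.43 (adjusted p = 4.42e-05, edgeR). Its call held in all 39 alternative fits, with log2 fold changes of 0.34 to 0.47. Jsrp1, a junctional protein of the reticulum, was higher in MET+LEU vs. SD (0.22, adjusted p = 0.00110), and Fkbp1a, which binds the ryanodine receptor, lower (-0.16, adjusted p = 0.00236, edgeR). With the GC offset Jsrp1 was at 0.37 and Fkbp1a at -0.10, and Fkbp1a did not pass in the model of the compared groups only.

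Most genes of calcium-binding proteins of the reticulum went the other way to Casq1. Of 8 tested, 6 were higher and 1 lower in SD vs. 2% HS (median 0.15), where 13.9% of all genes passed in each direction. Calr (calreticulin) rose from 585 ± 4.09 to 856 ± 42.5 CPM (log2 fold change 0.55, adjusted p = 7.04e-16) and Hspa5, the chaperone BiP, from 358 ± 19.5 to 469 ± 28.8 CPM (0.39, adjusted p = 7.54e-11, edgeR), both with separate libraries. Srl (sarcalumenin) fell (-0.25, adjusted p = 1.22e-07, edgeR). With MET+LEU 3 were higher and 1 lower than in SD, where 10.6% of all genes were higher and 7.8% lower. Hrc, the histidine-rich calcium-binding protein of the reticulum, was 79.3 ± 7.57 CPM in SD and 115 ± 32.5 in MET+LEU (0.53, adjusted p = 8.37e-04, edgeR), with separate libraries; without MET+LEU replicate 6 its log2 fold change was 0.35 (adjusted p = 1.01e-07). Canx (0.14) and Sdf4 (0.16) were the other 2 that were higher, but Sdf4 did not pass without SD replicate 2 or in the model of the compared groups only.

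In the other lists the calls went both ways, and their counts stand against 13.9% of all genes called in each direction in SD vs. 2% HS. Of 3 tested genes of the pump list, Atp2a3 (-0.50, adjusted p = 0.00674, edgeR) and Pln (phospholamban) were lower in SD vs. 2% HS. Pln was at 0.648 CPM in 2% HS and 0.194 in SD, where 3 counts in a library make 0.164 to 0.234 CPM. Its level in SD was thus near the limit of detection. Strit1, Arln and Erln were not matched by symbol. Of 9 store-operated and IP3 receptor genes, 3 were higher and 2 lower, with Stim1, the reticulum calcium sensor, at -0.38 (adjusted p = 2.01e-08), Orai1, the channel it opens, at -0.23 (adjusted p = 0.00315) and Orai2 at 0.34 (adjusted p = 1.48e-07, edgeR). Of 4 surface export genes, 2 were higher (Slc8a1 0.19 and Atp2b4 0.18) and 1 lower (Atp2b1 -0.17). Of 14 cytosolic buffers and decoders, 6 were lower and 4 higher; Pvalb (parvalbumin), the calcium buffer of fast fibres, fell from 23.4 ± 2.64 to 9.27 ± 1.52 CPM (-1.34, adjusted p = 1.60e-12), Camk2a had -0.36 (adjusted p = 9.77e-12) and Nfatc1, a transcription factor driven by calcineurin, 0.38 (adjusted p = 7.71e-09, edgeR). Of 8 mitochondrial uptake genes, 2 were lower, among them Mcu, the uniporter pore (-0.23), and 1 was higher, Smdt1 (0.17), a call lost without 2% HS replicate 1 or 2 or SD replicate 1 or 3.

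Channel isoforms of embryonic muscle and heart were few. Ryr2, Cacna1c and Cacna1d never passed 7 counts in a library. Cacna1g, a T-type calcium channel, was higher in SD than in 2% HS (5.45 and 3.19 CPM, log2 fold change 0.78, adjusted p = 1.12e-05), as was Cacna1h (2.29 and 0.761 CPM, 1.56, adjusted p = 1.05e-07, edgeR), named because both tested genes of the list passed. In MET+LEU vs. SD, the log2 fold change of Cacna1h was -0.28 and did not pass (adjusted p = 0.326, edgeR). In the same comparison Slc8a1 (0.31), Atp2b1 (0.14), Smdt1 (0.29), Micu2 (0.23), Ppp3ca (0.24) and Myoz2 (0.26) were higher and Camk2a (-0.18) lower. Myoz2 was at 0.17 without MET+LEU replicate 6, and Atp2b1 did not pass without SD replicate 1, with limma-voom or in the model of the compared groups only.

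**Figure D5:**
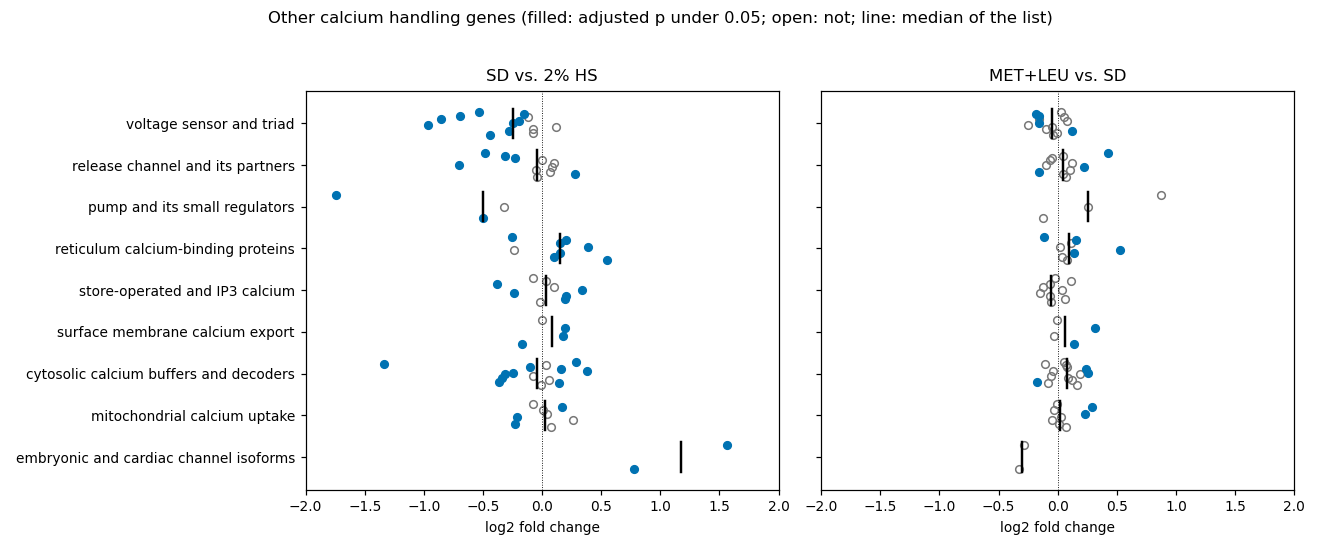
Log2 fold change (x axis) of the 72 tested genes of 9 calcium handling lists (y axis), for SD against 2% HS on one side and MET+LEU against SD on the other, filled where the adjusted p was under 0.05, with a line at each list's median. The medians for SD vs. 2% HS were -0.25 for the voltage sensor and triad and 0.15 for the reticulum calcium-binding proteins.

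Some markers of myotubes and of unfused cells also passed. In SD vs. 2% HS, where 27.8% of all genes passed, 3 of the 10 myotube markers were lower (Ckm -0.98, Mymx -0.39 and Ttn -0.33) and 1 was higher (Des 0.13), while Myog (0.05, adjusted p = 0.309) and Acta1 (-0.10, adjusted p = 0.219, edgeR) did not pass. Of the 9 markers of unfused and cycling cells, Pax7 (-0.37) and Cdh15 (-0.36) were lower and Id1 (0.33) higher. Compared with SD, 5 of these 9 were lower in MET+LEU (7.8% of all genes were), among them Ccnb1 (-0.89), Top2a (-0.64) and Cdk1 (-0.61). Of the 10 myotube markers, 3 were higher (10.6% of all genes were), among them Myh8 (0.38) and Myh3 (0.36). Mymx was lower (-0.32), 6 did not pass, and the median log2 fold change of the 10 was -0.01. Without MET+LEU replicate 6, Myh3 was at 0.21, and it did not pass in the model of the compared groups only. Myh6 was lower in SD than in 2% HS (-0.53) and higher in MET+LEU than in SD (0.78). The first call was lost without 2% HS replicate 3 or SD replicate 2, and the second in the model of the compared groups only. The part of these markers in the changes of the calcium genes was not tested.

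Across the 30 libraries, 8 of the 10 genes varied together and Casq2 and Cacng1 did not. As a description, the Pearson correlation of a gene with the mean of the other 9 lay between 0.75 and 0.94 for those 8, and was -0.35 for Cacng1 and -0.64 for Casq2; the libraries share groups, so these values carry no test. Outside the list, the genes whose log2 CPM followed the mean of the members most closely included Ckm (r = 0.965), the muscle creatine kinase, Adssl1 (0.951), a muscle enzyme of purine synthesis, Ckb (0.947) and Aif1l (0.943), over 30 libraries. Ckm had a mean of 308 CPM with 2% HS and means of 140 to 156 CPM across the serum-free groups, which is the pattern of Atp2a1 and Cacna1s. Ckm is also in the list of myotube markers.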

How the data were processed

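The authors sequenced ribosomal RNA-depleted total RNA as 150 base paired reads and deposited raw read counts per gene. The submitters' processing notes name cutadapt 1.16, STAR 2.7.6a, featureCounts 1.6.3, DESeq2 1.30.1 and GRCm38; the strand setting and annotation release are not given in the sources used here. Groups came from the sample labels. All 30 count columns were used (columns not used: 0), with totals of 12784960 to 19604103 counts. Sln had the fewest counts of any member (75 to 400 per library). Of 55487 identifiers, 55141 matched GENCODE M21, which also gave exon length and GC content. The members and gene lists were chosen with earlier results of these data known.

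In R 4.3.3, genes were filtered with filterByExpr (minimum count 10, minimum total 15), leaving 15907. TMM-scaled counts of all 30 libraries were fitted to group means with the robust quasi-likelihood test of edgeR 4.0.16, with Benjamini-Hochberg adjustment over all genes and a threshold of 0.05. Log2 CPM values used a prior count of 2. Ratios used counts plus 0.5 and exact permutation tests. The wider text named up to 3 genes per list and comparison, those with the largest change among called genes whose log2 CPM averaged 1 or more. Cacna1h, Pln, Des, Myog and Acta1 fall outside it and were chosen with their values known. The likeness rule named the 5 genes best correlated with the mean of the members. Some genes that these rules name are not reported here. Alternatives were DESeq2 1.42.0, its size factors, upper-quartile normalization, limma-voom (limma 3.58.1), another filter (more than 5 counts in total), a GC offset (loess span 0.3), ribosomal RNA genes left out, the compared groups only, a replicate block and each library left out.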

Additional observations from a re-analysis of the deposited data

Results flagged for a closer look

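In 2 of 70 groups of 6 libraries, 1 library lay far from the others by Dixon's test, which chance does in about 1 in 20 groups. Both were the ratio of Cacna1s to Ryr1 counts. In 2% HS, replicate 3 had a log2 ratio of -0.875642, below a group median of -0.80. In MET+LEU, replicate 6 had a log2 ratio of -1.04998, below a group median of -0.94, and this was the library with the highest share of ribosomal RNA. The decrease of this ratio against 2% HS, both in SD and with MET+LEU, kept its call when either library was left out.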

How the results depend on the processing

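The members called in SD vs. 2% HS and MET+LEU vs. 2% HS numbered 9 in the main analysis, and none of these 9 calls was lost in any of the 39 alternatives. In MET vs. SD the count of 0 became 2 with DESeq2 and limma-voom, 1 with the GC offset, the upper-quartile normalization and the replicate block, and 0 to 2 with 1 library left out. In MET+LEU vs. SD the count of 4 became 1 with the compared groups only, 2 with limma-voom, 2 with the filter of more than 5 counts, 5 with the replicate block, and 2 to 4 with 1 library left out. For MET+LEU vs. MET the count of 2 became 4 with the GC offset, all higher, and 0 with the compared groups only. With the replicate block it became 4, of which 3 were higher and 1 lower (Jph2). The count was 2 to 3 with 1 library left out. For MET+LEU vs. LEU the count of 2 became 1 with the compared groups only or the filter of more than 5 counts, and 1 to 2 with 1 library left out. The Sln to Atp2a1 log2 ratio in MET+LEU vs. SD was 0.37 and passed with a pseudocount of 5 (adjusted exact permutation p = 0.0494). It also passed with the replicate block (0.37, adjusted p = 0.0375, exact sign-flip test). For ratios that block flips the signs of differences between same-numbered libraries. With 1 library left out the Sln to Atp2a1 ratio ranged from 0.29 to 0.46, passing without SD replicate 2 or MET+LEU replicate 6. Against 2% HS it ranged from -0.45 to -0.29, missing the threshold without 2% HS replicate 1 or 2 or MET+LEU replicate 4, 5 or 6. The Atp2a1 to Atp2a2 ratio in MET+LEU vs. SD ranged from -0.14 to -0.097, and Casq1 to Casq2 from -0.063 to 0.023, turning without MET+LEU replicate 6. The small log2 fold change of Atp2a2 in MET+LEU vs. SD turned to 0.017 with limma-voom and ranged from -0.042 to 0.019 with 1 library left out, turning without SD replicate 1 or MET+LEU replicate 6; that of Cacng1 turned to 0.066 with the GC offset and 0.022 with limma-voom and ranged from -0.041 to 0.018, turning without SD replicate 1. The cause was not tested. Over all genes tested, deviations of same-numbered libraries from their group means correlated at a mean of 0.016 over 60 pairs, with 2 pairs over 0.1. Such a mean cannot show whether single genes such as Sln followed the replicate number. The block was therefore used only as an alternative.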

Other observations

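The highest levels of Sln and Atp2a1, and the lowest of Sln, each fell on the same replicate number in most groups. The highest level of Sln lay in replicate 2 in all 5 groups (24.4 CPM with 2% HS, 11.2 CPM for SD, 9.60 CPM for MET, 12.4 CPM for LEU, 13.8 CPM for MET+LEU), and its lowest in replicate 6 in 2% HS, SD, LEU and MET+LEU. Atp2a1 was highest in replicate 2 in 4 of the 5 groups, but its lowest level lay in replicate 1, 4 or 6. What the number stands for is not given in the labels. In MET+LEU, replicate 6 was lowest of its group for 7 of the 10 members (Ryr1, Atp2a1, Atp2a2, Cacna1s, Cacng1, Sln and Jph2) and highest for Casq2.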
